A study of Mus musculus with 6 samples.

Results

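The genes described here are Trp53, which encodes the transcription factor p53, and known regulators and target genes of p53 in the mouse. They form a list of 40 gene symbols that was drawn up with earlier results of these data known, and all 40 were found among the 55331 genes of the authors' deposited table. Messenger RNA had been sequenced from small intestinal crypt cells of 3 WT and 3 PTBP1_KO mice of the C57BL/6 strain at 60 days of age. WT mice were Ptbp1f/f, so they carried floxed Ptbp1 alleles, and PTBP1_KO mice were Ptbp1f/f;Vil-creER+/-, with a tamoxifen-activated Cre driven by villin regulatory sequence in intestinal epithelium. Every mouse received tamoxifen at 100 mg/kg on 2 consecutive days, and crypt cells were taken 20 h after the last injection. Mice with the Cre transgene but no floxed allele were not analysed here, so effects of active Cre and of the lost Ptbp1 cannot be told apart. The design asks how PTBP1, an RNA-binding regulator of splicing, acts in regeneration of the intestinal epithelium.

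p53 is a transcription factor that is held at low activity by Mdm2, a ubiquitin ligase that marks it for degradation, and by the related protein Mdm4. When DNA damage, nucleolar stress or other insults free it from Mdm2, p53 switches on genes for cell cycle arrest, DNA repair, apoptosis and its own negative feedback. In the intestine, crypt cells are known for a strong p53 response to radiation, with the cell cycle inhibitor Cdkn1a and the apoptosis gene Bbc3 among its best studied targets. Because p53 is controlled mainly at the protein level, the level of Trp53 mRNA is no measure of its activity.

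Levels are given in FPKM, which scales fragments to transcript length and to the number of mapped fragments, as 1 value per group. The table gives no value per library, so no level carries an error of its own, sequencing depth is unknown, and whether libraries of the groups overlap is not known. Tests at the gene level are those of the authors, whose p-values measure only the spread they modelled between these samples, and a q-value is their p-value adjusted over all 15460 tested genes. The targeted gene was examined first: Ptbp1 had 230.0 FPKM in WT mice and 122.8 FPKM in PTBP1_KO mice, which is 53.4% of the WT level, with q = 0.0125 in the authors' deposited table. The epithelial markers Epcam, Krt8, Krt19 and Cdh1 ranged from 227 to 2191 FPKM over both groups, whereas the stromal and endothelial markers Col1a1, Col1a2, Col3a1, Dcn and Pecam1 had at most 1.51 FPKM. The levels come from bulk cells, in which fewer cells of a type and less RNA per cell cannot be told apart.

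Of the 40 genes, 38 were tested by the authors, and Dram1 and Ak1 were not tested at 0.2 FPKM or less in both groups. The called genes were Ccng1, Eda2r, Trp53inp1 and Gdf15, all of them higher in PTBP1_KO, where 0.537% of all tested genes were called in either direction. That is 4 of 38 genes called higher, or 10.5%, where 0.388% of all tested genes were called higher at q below 0.05. None was called lower at q below 0.05 or had an unadjusted p below 0.05 with a lower value in the authors' deposited table, where 0.149% and 1.66% of all tested genes did so. An unadjusted p below 0.05 with a higher value was listed for 9 of the 38 genes, or 23.7%, where 2.69% of all tested genes had one. Values were higher in PTBP1_KO for 28 of the 38 genes, or 73.7%, against 54.7% of all tested genes. The median log2((PTBP1_KO + 1)/(WT + 1)) was 0.17 over the 38 genes and 0.02 over all tested genes.

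**Figure D1:**
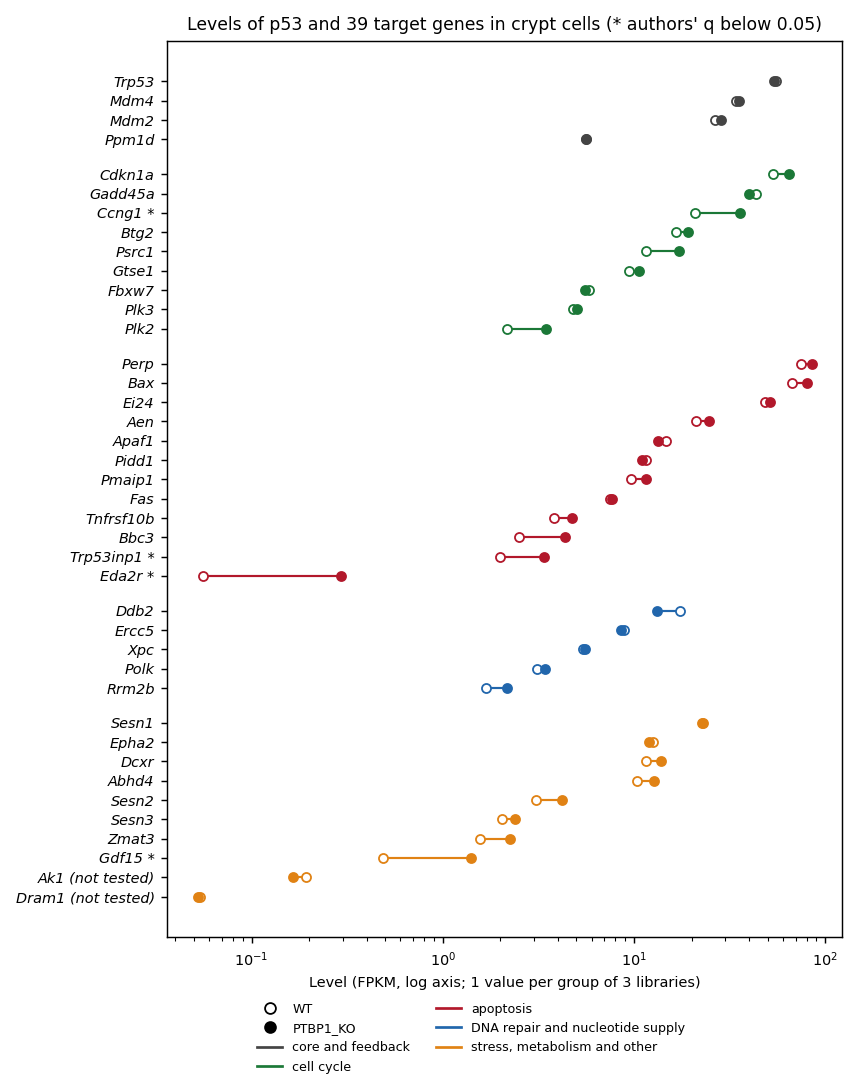
Levels of the 40 genes in WT (open circles) and PTBP1_KO (filled circles), in FPKM on a log axis, grouped by role, with 1 value per group and no error bars because no value per library is given. The longest lines are those of Eda2r and Gdf15, both under 2 FPKM, while Trp53, Mdm4, Ppm1d and Sesn1 have circles that nearly coincide.

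The core of the pathway was at nearly equal levels in the groups. Trp53 (chromosome 11, 69580359 to 69591873, plus strand, mm10) had 55.1 FPKM in WT mice and 53.8 FPKM in PTBP1_KO mice, at p = 0.819 in the authors' deposited table. Mdm2 (chromosome 10, 117688875 to 117710758, minus strand) is both the main inhibitor of p53 and one of its targets. It had 26.5 FPKM in WT mice and 28.5 FPKM in PTBP1_KO mice, a ratio of 1.08 with p = 0.534 in the authors' deposited table. Mdm4 had 34.3 FPKM and 35.3 FPKM. Ppm1d, a phosphatase that removes activating phosphates from p53 and its kinases, had 5.61 FPKM and 5.60 FPKM. None of these 4 genes was called, where 0.537% of all tested genes were called in either direction. The PTBP1_KO to WT ratios of the 4 genes lay between 0.976 and 1.08.

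Among 9 genes with roles in the cell cycle, 7 had higher values in PTBP1_KO and 1 was called. Of all tested genes, 54.7% had higher values and 0.388% were called higher. Ccng1 (chromosome 11, 40748552 to 40755311, minus strand) encodes cyclin G1, a p53 target that recruits a phosphatase to Mdm2. It rose from 20.8 FPKM in WT mice to 35.6 FPKM in PTBP1_KO mice, which is 1.71-fold. The authors' deposited table gives 0.78 as its log2 fold change, at q = 0.0125. No gene there has a smaller q, but other genes share this value, Ptbp1, Phlda3 and Gzma among them. Of the called genes, Ccng1 was the one with the highest level, and the only one above 5 FPKM. Plk2, a polo-like kinase induced by stress, went from 2.17 to 3.45 FPKM with p = 0.0035 and q = 0.289 in the authors' deposited table. Psrc1, a microtubule-binding protein of the mitotic spindle, went from 11.5 to 17.1 FPKM with p = 0.0193 and q = 0.728 in the authors' deposited table.

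Cdkn1a (chromosome 17, 29090976 to 29100727, plus strand) encodes p21, the inhibitor of cyclin-dependent kinases through which p53 arrests the cell cycle. It had 53.4 FPKM in WT mice and 65.0 FPKM in PTBP1_KO mice, a ratio of 1.22, and did not pass with p = 0.0548 in the authors' deposited table. Btg2, an antiproliferative gene, had 16.6 and 19.2 FPKM in WT and PTBP1_KO. Gtse1, which is expressed in G2 and S phase and counteracts p53, had 9.37 and 10.6 FPKM, and the kinase Plk3 had 4.78 and 5.00 FPKM. The remaining cell cycle genes had lower values in PTBP1_KO. Gadd45a, a growth arrest gene, had 43.2 and 39.9 FPKM, and Fbxw7, the substrate receptor of a ubiquitin ligase for cyclin E and Myc, had 5.81 and 5.52 FPKM.

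The p53 response element consensus, a pair of 10-base motifs with a spacer of 0 to 13 bases, was searched for in RefSeq promoters of GRCm38.p6, from 250 bases before to 50 bases after each start. At most 2 mismatches in the 20 motif bases were allowed, and none in the central C and G of either motif. The consensus is its own reverse complement, so 1 strand covers both. Promoters were found for 32 of the 40 genes. A match was present for 6 of these 32 genes, or 18.8%, and for 4.71% of 27025 genes with a promoter. The closest matches of the cell cycle genes and of Bax and Sesn1 are shown because they place the consensus beside the values above and below, with motif bases in capitals and any spacer in lower case.
Ccng1, 1 mismatch, bases -195 to -176 from the start: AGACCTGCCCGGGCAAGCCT
Cdkn1a, 1 mismatch, bases -51 to -32 from the upstream start: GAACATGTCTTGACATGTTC
Cdkn1a, 0 mismatches with a spacer of 12 bases, bases -73 to -42: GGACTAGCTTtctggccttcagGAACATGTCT
Gtse1, 1 mismatch, bases -1 to 18: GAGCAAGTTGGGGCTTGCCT
Bax, 2 mismatches, bases -201 to -181: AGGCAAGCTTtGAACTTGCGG
Sesn1, 2 mismatches, bases -186 to -164: GCGCTTGGCCttcAAGCTTGTTT
Gadd45a, 2 mismatches, bases -56 to -31: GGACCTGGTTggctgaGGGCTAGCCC

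Positions count from 0 at the RefSeq start, with negative numbers upstream. The Ccng1 match lies at chr11:40755462-40755481 on the minus strand, the ungapped Cdkn1a match at chr17:29090928-29090947 on the plus strand and the Gtse1 match at chr15:85859945-85859964 on the plus strand. The ungapped Cdkn1a match shares its first 10 bases with the last 10 of the spaced one. The Sesn1 match lies at chr10:41887253-41887275 on the plus strand, inside the annotated gene, which begins at 41809935. It thus belongs to an inner start, with 2 RefSeq promoters listed for Sesn1. Among the genes with a match, Ccng1 was called higher, whereas Cdkn1a, Gtse1, Bax, Sesn1 and Gadd45a had ratios of 1.22, 1.14, 1.19, 0.988 and 0.924. No match was found in the promoters of Eda2r and Gdf15, which says only that these letters are not in those windows. Trp53inp1, the remaining called gene, was not among the 32 genes and its promoter was not searched. A match is a likeness of letters only, and whether p53 binds at any of them was not tested. The 250 bases upstream of Ccng1 are printed to show its match in its surroundings.
Ccng1, 250 bases before the start: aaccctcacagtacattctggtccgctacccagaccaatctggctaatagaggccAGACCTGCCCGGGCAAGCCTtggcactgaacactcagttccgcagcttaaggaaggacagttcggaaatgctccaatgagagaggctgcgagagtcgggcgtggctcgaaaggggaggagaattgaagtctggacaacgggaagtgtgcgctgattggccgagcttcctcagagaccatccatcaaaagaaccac

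Among 12 genes of apoptosis and death receptor signalling, 10 had higher values in PTBP1_KO and 2 were called. The shares over all tested genes were 54.7% with higher values and 0.388% called higher. Eda2r (chromosome X, 97333840 to 97377216, minus strand) encodes a receptor of the tumor necrosis factor family and is a p53 target in mouse tissues. It rose from 0.0560 FPKM in WT mice to 0.292 FPKM in PTBP1_KO mice, a ratio of 5.22 between 2 very low levels. The authors' deposited table gives 2.38 as its log2 fold change, at q = 0.0305. Trp53inp1 (chromosome 4, 11156431 to 11174379, plus strand) encodes a nuclear protein that promotes p53-dependent apoptosis and autophagy. It rose from 2.00 to 3.37 FPKM, which is 1.68-fold, at a log2 fold change of 0.75 and q = 0.0305 in the authors' deposited table.

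Bbc3, which encodes the BH3-only protein PUMA, went from 2.50 to 4.36 FPKM, a ratio of 1.75. Its p of 0.0123 corresponded to q = 0.583 in the authors' deposited table, so it was not called. Pmaip1, which encodes the BH3-only protein NOXA, had 9.63 FPKM in WT mice and 11.6 FPKM in PTBP1_KO mice. The pore-forming effector Bax had 67.4 and 80.4 FPKM with p = 0.512 in the authors' deposited table. Perp, a membrane protein of desmosomes and the most abundant of the 40 genes, had 74.8 and 85.0 FPKM. The apoptosis-enhancing nuclease Aen had 21.02 and 24.7 FPKM, and Ei24, a protein of the endoplasmic reticulum, had 48.7 and 51.3 FPKM.

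The death receptors showed ratios near those of the other genes without a call. Tnfrsf10b, the mouse receptor for TRAIL, had 3.81 FPKM in WT mice and 4.76 FPKM in PTBP1_KO mice. Fas, which lymphocytes also express, had 7.51 and 7.66 FPKM. Lower values in PTBP1_KO were listed for the scaffold proteins of caspase activation. Apaf1 of the apoptosome had 14.6 and 13.4 FPKM, and Pidd1 of the PIDDosome had 11.6 and 11.0 FPKM.

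None of 5 genes of DNA repair and nucleotide supply was called, and none had an unadjusted p below 0.05 in the authors' deposited table. Of all tested genes, 0.537% were called, and 2.69% and 1.66% had such a p with a higher and a lower value. At those shares, the lack of a call among 5 genes does not set this group apart. Ddb2 (chromosome 2, 91211572 to 91236982, minus strand), the damage-binding subunit of nucleotide excision repair, had the lowest ratio of the 38 tested genes. It had 17.4 FPKM in WT mice and 13.1 FPKM in PTBP1_KO mice, a ratio of 0.757 with p = 0.116 in the authors' deposited table. Xpc, the other damage sensor of this repair pathway, had 5.43 and 5.55 FPKM, and the repair nuclease Ercc5 had 8.91 and 8.53 FPKM. The bypass polymerase Polk had 3.12 and 3.41 FPKM. Rrm2b, the p53-inducible subunit of ribonucleotide reductase, had 1.68 and 2.16 FPKM.

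Of 10 genes of stress signalling, metabolism and other functions, 8 were tested, 6 of these had higher values in PTBP1_KO and 1 was called. The same shares over all tested genes, 54.7% and 0.388%, apply here. Gdf15 (chromosome 8, 70629393 to 70632456, minus strand) encodes a secreted stress hormone of the TGF-beta family. It rose from 0.485 to 1.40 FPKM, which is 2.89-fold, at a log2 fold change of 1.53 and q = 0.0466 in the authors' deposited table, just inside the threshold. Zmat3, an RNA-binding zinc finger protein, went from 1.57 to 2.24 FPKM with p = 0.0066 and q = 0.421 in the authors' deposited table. The sestrins restrain mTORC1 when nutrients are short or cells are stressed. Sesn2 went from 3.07 to 4.20 FPKM with p = 0.0187 and q = 0.712 in the authors' deposited table, Sesn1 had 22.9 and 22.6 FPKM, and Sesn3 had 2.05 and 2.39 FPKM.

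The other genes of this group had small differences. Abhd4, a lipid hydrolase, had 10.4 FPKM in WT mice and 12.7 FPKM in PTBP1_KO mice, and Dcxr, a xylulose reductase, had 11.5 and 13.8 FPKM. The receptor tyrosine kinase Epha2 had 12.5 and 11.97 FPKM. The autophagy regulator Dram1 was listed at 0.0539 and 0.0525 FPKM, the lowest levels of the 40 genes in WT and PTBP1_KO. Ak1, an adenylate kinase, was listed at 0.194 and 0.164 FPKM. Over all roles, the 29 tested genes with p of 0.05 or more had ratios from 0.757 to 1.29, with 19 higher and 10 lower.

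The genes were then split by level, a split made after the values were seen. The scale log2((PTBP1_KO + 1)/(WT + 1)) understates changes of low genes. Of the 12 tested genes with a mean of both groups under 5 FPKM, 12 had higher values in PTBP1_KO, and their median log2((PTBP1_KO + 1)/(WT + 1)) was 0.31. Over all 6464 tested genes under 5 FPKM, 51.8% had higher values and the median was 0.01. Among genes of at least 5 FPKM in the higher group, the median of the apoptosis genes was 0.13 in place of 0.23, and that of the stress and metabolism genes 0.11 in place of 0.26. Of the 26 genes at 5 FPKM or more, 16 had higher values and their median was 0.06, against 56.8% and 0.02 for 8996 tested genes of that level. At least 1.5-fold higher values were listed for 6 of the 38 genes, namely Ccng1, Bbc3, Eda2r, Trp53inp1, Gdf15 and Plk2, where 5.38% of all tested genes had them. That share depends on level. Under 5 FPKM, 5 of the 12 genes had such values, beside 757 of all 6464 tested genes of that level. At 5 FPKM or more, 1 of the 26 genes had them, beside 75 of 8996.

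**Figure D2:**
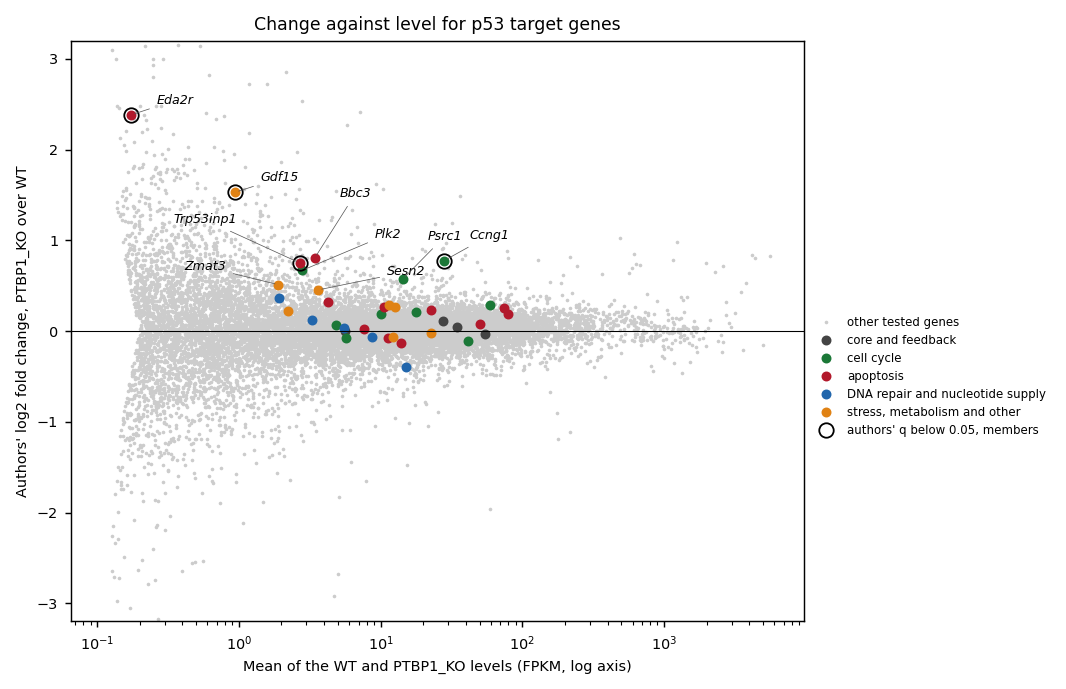
The authors' log2 fold change of PTBP1_KO over WT against the mean level of both groups (FPKM, log axis) for the 38 tested genes, coloured by role, and for other tested genes above 0 in both groups (grey, 16 genes lie outside the plotted range). Labels mark the 9 genes with an unadjusted p below 0.05 and rings the 4 called ones, of which only Ccng1 has a mean above 5 FPKM.

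Other genes of the pathway were read from lists that the 40 genes do not enter. Of 30 further p53 targets, 27 were tested, 14 had higher and 13 lower values, and their median log2((PTBP1_KO + 1)/(WT + 1)) was 0.02. Over all tested genes, 54.7% had higher values and 0.388% were called higher. Of these 27 targets, the 1 called was Phlda3, which competes with AKT for membrane lipids. It went from 0.414 to 2.74 FPKM with q = 0.0125 in the authors' deposited table. Lif, a cytokine gene bound by p53, went from 2.39 to 4.73 FPKM with q = 0.0740 in the authors' deposited table. Over all tested genes, 2.69% had an unadjusted p below 0.05 with a higher value and 1.66% with a lower one. Of these 27 targets, 3 had it with a higher value, or 11.1%, and 1 with a lower value, in the authors' deposited table. Beside Phlda3 and Lif, the higher ones included Cyfip2, a regulator of actin assembly, with 0.632 and 1.09 FPKM at p = 0.00275 in the authors' deposited table. The highest levels of this list were those of Rps27l (293 and 348 FPKM), Sfn (120 and 117 FPKM) and Cd82 (88.0 and 101.6 FPKM), none of them called. Tigar, a regulator of glycolysis, had 7.30 FPKM in WT mice and 5.82 FPKM in PTBP1_KO mice, at p = 0.0479 in the authors' deposited table.

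Of 28 upstream regulators and partners of p53, 25 were tested, 12 had higher and 13 lower values, and none was called. Their median log2((PTBP1_KO + 1)/(WT + 1)) was -0.01. Over all tested genes, 54.7% had higher values, 0.537% were called in either direction and the median was 0.02. An unadjusted p below 0.05 with a lower value was listed for 1.66% of them. The kinase Chek2 had an unadjusted p of 0.0224, with 14.1 FPKM in WT mice and 10.8 FPKM in PTBP1_KO mice, and q = 0.780 in the authors' deposited table. The damage kinases Atm and Atr had 2.53 and 6.80 FPKM in WT and 2.24 and 6.23 FPKM in PTBP1_KO. Among the ribosomal proteins that bind Mdm2, Rpl11 had 1308 and 1286 FPKM, Rpl5 654 and 667 FPKM, and Rpl23 1353 and 1245 FPKM. Of 14 cell cycle genes that p53 is known to repress through p21 and the DREAM complex, 5 had higher and 9 lower values. Their median was -0.05 and none was called, beside the same shares over all tested genes. Birc5 was at 130 and 118 FPKM and Cdk1 at 84.6 and 85.9 FPKM.

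Gdf15 and Sesn2 are also known targets of the integrated stress response, in which the transcription factor Atf4 acts. Of 18 other genes of that response, 16 were tested, 10 had higher and 6 lower values, and none was called, with a median of 0.12. Over all tested genes, 54.7% had higher values, 0.537% were called in either direction and the median was 0.02. An unadjusted p below 0.05 in the authors' deposited table was listed for the amino acid synthesis genes Asns, with 25.3 and 31.7 FPKM, and Phgdh, with 6.69 and 11.0 FPKM. These are 12.5% of the 16 genes, where 2.69% of all tested genes had such a p with a higher value. Atf4 itself had 208 FPKM in WT mice and 199 FPKM in PTBP1_KO mice, and Ddit3 had 29.1 and 25.5 FPKM.

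Markers of other cell types moved between the groups as well. For comparison, 54.7% of all tested genes had higher values in PTBP1_KO and 0.388% were called higher. An unadjusted p below 0.05 was listed for 2.69% with a higher value and 1.66% with a lower one. Of 12 markers of T cells and intraepithelial lymphocytes, 11 had higher values in PTBP1_KO and 4 were called, namely Gzma, Gzmb, Cd7 and Cd8a. The summed level of the 12 markers was 174 FPKM in WT mice and 290 FPKM in PTBP1_KO mice. Among them, Cd3e and Ptprc had 5.66 and 5.96 FPKM in WT and 8.68 and 9.26 FPKM in PTBP1_KO. The 1 marker with a lower value was Cd3d, at a PTBP1_KO to WT ratio of 0.989. Of 6 Paneth cell markers, 6 had higher values and 2, Mmp7 and Ang4, were called, with summed levels of 8097 and 13846 FPKM. Of 8 B cell and myeloid markers, 7 were tested and none was called, with sums of 809 and 923 FPKM, of which Cd74 made up 790 and 898 FPKM. Of these 7, 2 had a higher value at an unadjusted p below 0.05 in the authors' deposited table, namely the plasma cell gene Jchain (4.40 and 7.10 FPKM, p = 0.00385) and the B cell gene Cd79a (5.49 and 7.97 FPKM, p = 0.0287). The macrophage gene Adgre1 was not tested, at 0.0646 and 0.0880 FPKM. The part of these cell types in the values of the 40 genes was not tested. The 9 stromal and endothelial markers summed to 3.56 and 2.19 FPKM, and of the 6 tested, 4 had a lower value with an unadjusted p below 0.05 in the authors' deposited table and none was called. None of 5 tested enterocyte markers was called (median 0.12). The 4 crypt stem cell markers were all lower without a call (median -0.08), and 0 of 7 epithelial markers were called (median 0.12).

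**Figure D3:**
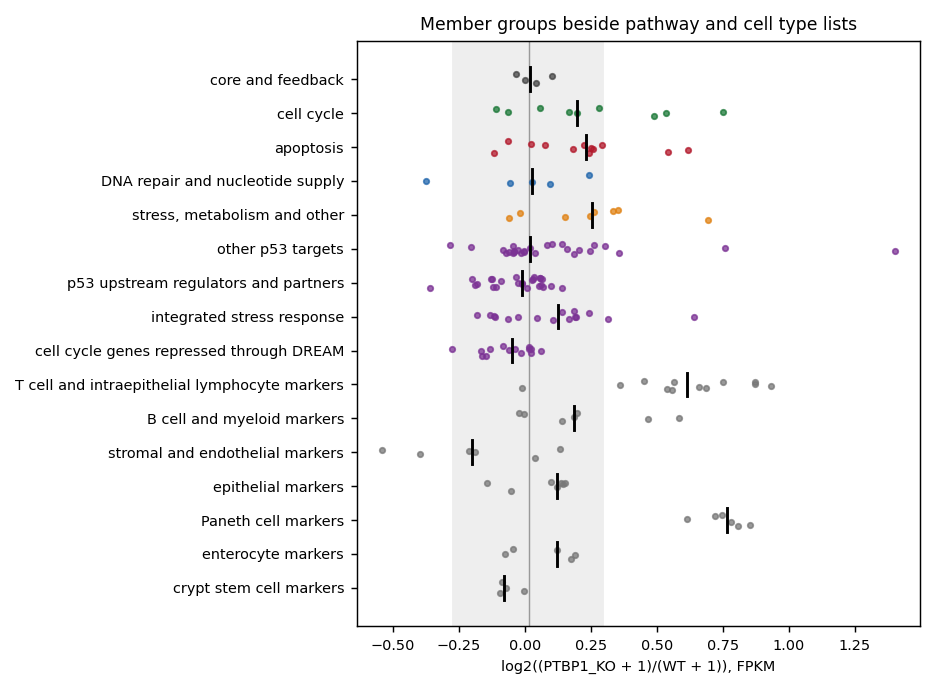
Each point is a tested gene, placed by log2((PTBP1_KO + 1)/(WT + 1)) of its FPKM, for the 5 roles of the 40 genes, 4 other pathway lists and 7 marker lists, with vertical offsets that only separate points; black bars are medians, the grey line is the median of all tested genes (0.02) and the grey band runs from their 5th to their 95th percentile (-0.27 to 0.30). Apoptosis, cell cycle and stress genes have medians of 0.23, 0.20 and 0.26, below those of the T cell (0.61) and Paneth cell (0.77) lists.

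Several loci bear on how a level can be read. The Cuffdiff locus was longer than the annotated gene for Bax (64.6 kb against 5.20 kb), Gadd45a (45.6 kb against 2.36 kb) and Fbxw7 (1391 kb against 164 kb). For Ddb2, Ei24, Rrm2b and Plk3 the locus was also longer. Ddb2 overlaps Acp2 on the opposite strand, and Mdm4, Cdkn1a, Plk3, Rrm2b, Polk, Gadd45a, Ei24, Apaf1 and Fbxw7 overlap other genes there too. Whether the counting used strand is not given in the sources used here, so reads of these overlaps cannot be told apart. Bax, Sesn1, Sesn2, Fas, Rrm2b and Fbxw7 overlap another annotated gene on the same strand, where strand would not separate the reads. The 4 called genes Ccng1, Eda2r, Trp53inp1 and Gdf15 overlap no other annotated gene in GENCODE M21, and their loci equal the annotated genes.

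Splicing was then read for the same genes. The authors' tables hold 122 events in 27 of the 40 genes, for skipped exons, alternative 5' and 3' splice sites, mutually exclusive exons and retained introns. An inclusion level is the share of transcripts that contain the region, from 0 to 1, and the difference is the authors' first set of libraries minus their second. Neither set carries a genotype in the file headers, so no direction by genotype is given and reads are summed over the 6 libraries. Of 117 events that averaged 20 or more reads in a library, 59 had a pooled inclusion above 95%. At an FDR below 0.05 in the authors' deposited table there were 4 events, in Mdm2, Mdm4, Ddb2 and Polk, where 3.76% of all events with that coverage passed. With an absolute difference of at least 0.1 as well, 1 event was called, in Mdm2, where 1.56% of all events with that coverage were. An unadjusted p below 0.05 in the authors' deposited table was listed for 13 of the 117 events, where 10.3% of all events had one. By type, 2 of 73 skipped exons passed the FDR and 0 were called, against 3.79% and 1.68% of all such events. Of 11 pairs of mutually exclusive exons, 1 passed and 0 were called, against 2.46% and 1.02%. Of 19 events listed as retained introns, 1 passed and was called, against 7.14% and 2.06%. None of 4 alternative 5' sites (background 4.57% and 1.57%) or of 10 alternative 3' sites (2.85% and 1.1%) passed. Each of these counts rests on at most 2 events.

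**Figure D4:**
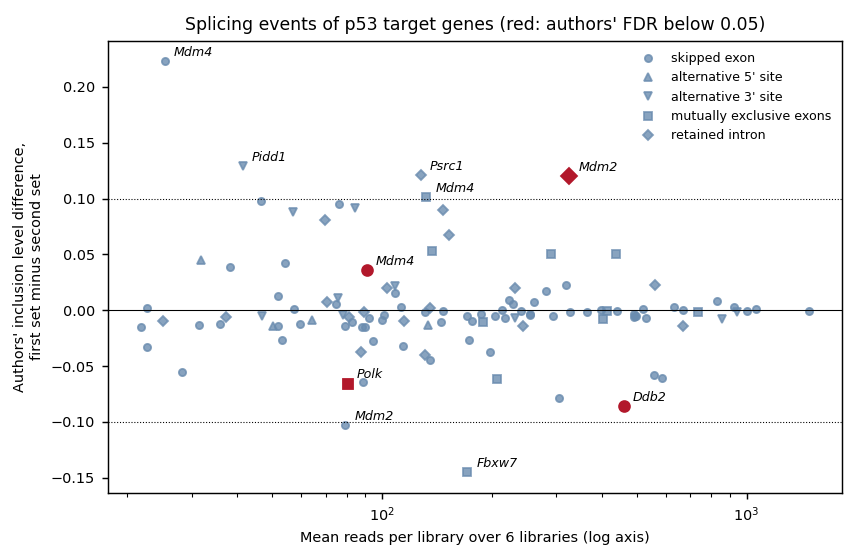
The authors' inclusion level difference (first set minus second set, genotype not named) against mean reads per library on a log axis for 117 events of 26 genes. Red marks the 4 events with an FDR below 0.05, and dotted lines mark differences of 0.1 and -0.1. Names are given for red points and for points on or beyond those lines. Only the Mdm2 event listed as a retained intron, whose region holds a coding exon, is both red and beyond a line.

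The Mdm2 event is listed as a retained intron from 117695069 to 117696380 on chromosome 10 (minus strand), with a difference of 0.120 and FDR = 0.0305 in the authors' deposited table. It had 1937 inclusion reads and 20 skipping reads over the 6 libraries, 204 to 391 reads in a library. The region is not intron alone: it contains the whole of a 97 nt coding exon (chr10:117695953-117696049). Of 19 events listed as retained introns in the 40 genes, it is the only 1 that holds a coding exon. Its inclusion reads can thus come from that exon in spliced transcripts, so this call alone does not show that an intron was retained. As a skipped exon event, that exon had 1671 inclusion reads and also 20 skipping reads, a pooled inclusion of 98.0%. There the authors' deposited table lists a difference of 0.017 with p = 0.0322 and FDR = 0.399. The exon, whose length is not a multiple of 3, is shown because both events turn on reads that skip it.
Mdm2 exon, GRCm38, minus strand: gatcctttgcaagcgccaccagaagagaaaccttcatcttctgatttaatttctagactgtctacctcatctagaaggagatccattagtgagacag

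Mdm2 also has an alternative exon near its 5' end. This exon from 117709654 to 117709784 had 340 inclusion and 135 skipping reads, a pooled inclusion of 56.9%, and the authors' deposited table lists a difference of -0.103 with p = 0.124 and FDR = 0.999. Its shorter form, from 117709700, had 1048 inclusion reads against the same number of skipping reads, and a difference of -0.037 in the authors' deposited table, with p = 0.185. As an alternative 5' site event, the longer form had 23 reads and the shorter form 778, a pooled inclusion of 2.19% for the longer form. There the authors' deposited table lists a difference of -0.013 with p = 0.242. The 56.9% is therefore not the share of transcripts with the longer form.

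For Mdm4, the event with an FDR below 0.05 was a 78 nt untranslated exon (chromosome 1, 133019354 to 133019431, minus strand) that most transcripts skip. It had 40 inclusion and 504 skipping reads, a pooled inclusion of 4.90%, and in the authors' deposited table a difference of 0.036 with FDR = 0.0218. A further Mdm4 exon is known for its effect on the protein: skipping of this 68 nt exon shifts the reading frame and gives the short form known as MDM4-S. It had 403 inclusion and 54 skipping reads, a pooled inclusion of 83.5%, with 47 to 108 reads in a library. Its difference of 0.095 did not pass, with p = 0.0405 and FDR = 0.468 in the authors' deposited table. A 39 nt form of the exon, which starts at an inner 3' splice site, had 98 inclusion reads against the same 54 skipping reads. The authors' deposited table lists the largest difference of the 117 events for it, 0.223 with p = 0.00925 and FDR = 0.164, on 13 to 39 reads in a library. As an alternative 3' site event, the 68 nt form had 417 reads and the 39 nt form 37, a pooled inclusion of 90.4% for the longer form. There the authors' deposited table lists a difference of 0.011 with p = 0.770. The 39 nt are shared by both forms, so the 0.223 is not a measure of the 39 nt form against the 68 nt form. The exon is printed with the bases that the 39 nt form leaves out in capitals.
Mdm4 exon, chr1:133004654-133004721, GRCm38, minus strand: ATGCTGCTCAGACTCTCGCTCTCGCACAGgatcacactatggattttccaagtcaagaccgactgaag

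In Trp53, mouse cells use a pair of 3' splice sites before the last exon, and the upstream one gives a p53 with another C terminus. The upstream site adds 96 nt, of which the first 52 are coding before the stop codon of that form. Reads from the upstream form numbered 1152 and those from the other form 3989, with 643 to 1004 reads in a library, a pooled inclusion of 14.8% for the upstream form. The authors' deposited table lists a difference of -0.008 with p = 0.501. A Trp53 intron (69587633 to 69588363) had a pooled inclusion of 9.13% with a difference of -0.014 and FDR = 0.399 in the authors' deposited table, and a 113 nt coding exon (69588626 to 69588738) was included at 99.9%. The 52 coding bases that the upstream form adds are shown because they set this form apart.
Trp53, chr11:69591254-69591305, GRCm38, plus strand: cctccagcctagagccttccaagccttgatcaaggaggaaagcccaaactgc

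Ddb2, which had the lowest level ratio, had 17 events with enough reads. A 143 nt coding exon (chr2:91216666-91216808, minus strand) had 2397 inclusion and 361 skipping reads, a pooled inclusion of 76.9%, with 334 to 591 reads in a library. Its difference was -0.086 with FDR = 0.0232 in the authors' deposited table, under the minimum of 0.1. A second skipped exon entry of the same coordinates had 866 inclusion and 2 skipping reads. Its pooled inclusion was 99.5% and its difference -0.011, so the values above belong to 1 entry of the exon. A mutually exclusive pair with this exon had a difference of 0.050 with FDR = 0.419 in the authors' deposited table. The length of the exon is not a multiple of 3, and the first entry is shown as the best covered of the 4 events that passed the FDR.
Ddb2 exon, GRCm38, minus strand: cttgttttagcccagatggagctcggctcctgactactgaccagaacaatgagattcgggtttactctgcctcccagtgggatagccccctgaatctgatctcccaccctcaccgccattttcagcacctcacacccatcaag

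The Polk event concerned a pair of exons listed as mutually exclusive (chromosome 13, 96496493 to 96496555 and 96496603 to 96496842). The form with the exon from 96496603 to 96496842 had 473 reads and the form with the other exon 10 reads, with a difference of -0.066 and FDR = 0.0321 in the authors' deposited table. Of 117 events with enough reads, 6 had an absolute difference of at least 0.1 without an FDR below 0.05 in the authors' deposited table. Beside those of Mdm2 and Mdm4 already given and a further pair of Mdm4 exons (0.101, FDR = 0.547), these were Fbxw7 exons (-0.145, FDR = 0.178), a Psrc1 intron (0.121, FDR = 0.112) and a Pidd1 splice site (0.129, FDR = 0.562), as the authors' deposited table has them. The Psrc1 intron (chromosome 3, 108384286 to 108384373) had 580 inclusion and 186 skipping reads.

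Of the genes called at the level of expression, Ccng1 had 4 events with enough reads, and the largest difference among them in the authors' deposited table was -0.005. Eda2r and Gdf15 had no event listed. Trp53inp1 had 1 event, with a mean of 10 reads, under the minimum.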

How the data were processed

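Libraries of 3 WT and 3 PTBP1_KO mice were read through the authors' files, and groups were taken from the sample titles. Tools named without roles in the submitters' processing notes were bcl2fastq 2.20, Trimmomatic 0.38, STAR 2.6.1d, Cufflinks and Cuffdiff, on mm10. The gene table gives FPKM for each group and a log2 fold change, per the file headers. Its p-values and q-values were deposited by the authors, and the q-values equal Benjamini-Hochberg values over 15460 tested genes within 5.01e-07. The 5 splicing tables give reads of 6 libraries, and the inclusion level difference is a score that the authors computed, per the file headers. Because genotypes of the sets are not named, the planned logistic model was not run, and 10 columns of per-library inclusion were left out. Gene calls used the authors' q below 0.05. Splicing calls used FDR below 0.05, a difference of at least 0.1 and a mean of at least 20 reads.

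The genes, the lists and the tests were chosen with earlier results of these data known. Named genes followed a rule: genes with q or unadjusted p below 0.05, Trp53, Mdm2, Cdkn1a, the extremes, events with FDR below 0.05 and, of other lists, called genes and up to 3 of the highest level. Genes and events beyond it were named after their values were seen. Coordinates are 1-based on mm10 (GRCm38), with genes and exons from GENCODE M21, where 40 of 40 identifiers matched without and 39 with their version. Promoters are from RefSeq, GRCm38.p6. The adjustment and the motif search were tested on simulated data. Python 3.11.15, numpy 2.4.6, pandas 2.3.3 and matplotlib 3.10.9 were used.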

Additional observations from a re-analysis of the deposited data

How the results depend on the processing

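Of the 40 genes, 4 were called higher in PTBP1_KO at q below 0.05, and 0 at q below 0.01, since no q in the authors' deposited table is below 0.0125. The count was 4 at q below 0.1 and with at least 1.5-fold, and 3 among genes of at least 1 FPKM, where Eda2r leaves, also with p adjusted again over those 12337 genes. The median log2 ratio of 0.17 was 0.19 with a pseudocount of 0.1 FPKM, 0.20 with none, 0.16 after centring on all tested genes, and 0.17 and 0.06 among genes of at least 1 FPKM (0.166) and 5 FPKM (0.0559). The median of the DNA repair group became -0.0566 among genes of at least 5 FPKM, where fewer genes enter. For splicing, 3 events passed with a difference of at least 0.05, 0 with at least 0.2 and 0 at FDR below 0.01, while the coverage alternatives kept the count at 1. Promoter matches numbered 3 with at most 1 mismatch and 3 with no spacer. No paired analysis was possible because the gene table gives 1 value per group and the splicing columns carry no genotype, so no replicate could be left out either.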
